A study of Mus musculus with 6 samples.

Results

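The molybdenum cofactor pathway and the enzymes that use it were followed through 7 mouse genes, Mocs1, Mocs2, Mocs3, Gphn, Suox, Xdh and Aox1. They comprised all 12 probe sets that the array annotation assigned to these genes alone, of 45037 probe sets and 18193 named genes in all. The set was chosen on measured values, since it was built around the very large difference of Mocs1 between SRF-null and control cells in these same arrays. Differences between the genotypes in the 7 genes are therefore a description, given with their standard errors. Counts of calls from the fit over the whole array are printed only beside their background, and nothing is read from them.

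SRF is a transcription factor of actin cytoskeleton and immediate early genes. The samples were LSK cells (Lin-Sca1+c-Kit+), the bone marrow fraction that contains hematopoietic stem cells and multipotent progenitors, sorted by flow cytometry from pooled C57BL/6 mice. Control mice were Srf+/+;Mx1-Cre and SRF-null mice were Srf flx/flx;Mx1-Cre. Both genotypes thus carried the Mx1-Cre transgene, and both received 3 injections of 200 µg pIpC at intervals of 2 days from 6 weeks of age, with analysis 35 days after the last one. The Mx1 promoter responds to interferon, which pIpC induces, so recombination in this model is not limited to LSK cells. Each genotype was represented by 3 arrays (n = 3). The sources used here do not say how many animals made up a pool, so the standard errors speak for arrays and not for animals. They come from a moderated fit, which draws the spread of each probe set between arrays toward a value shared by all probe sets. The series describes the array as MOE430A, whereas the annotation used for the deposited table belongs to a larger mouse array.

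The molybdenum cofactor is a pterin that holds a molybdenum atom in the active site of a few oxidoreductases. Its synthesis starts from GTP, which MOCS1 rearranges into cyclic pyranopterin monophosphate, a step that needs iron-sulfur clusters. MOCS2 supplies the molybdopterin synthase that adds sulfur, MOCS3 recharges its small subunit with sulfur, and gephyrin, the product of Gphn, inserts the metal. The cofactor is then used by sulfite oxidase (Suox), by xanthine dehydrogenase (Xdh), which makes uric acid from purines, and by aldehyde oxidases such as Aox1, which is best known from liver.

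The sequences upstream of Mocs1 and of Srf itself are shown because the deleted factor binds a known motif, the CArG box. Both are the 250 bases before the gene start in RefSeq, build GRCm38.p6, written 5′ to 3′ on the strand of the gene. Mocs1 lies on the plus strand (chr17:49428114-49428363) and Srf on the minus strand (chr17:46556163-46556412). Capitals mark CArG boxes.
Mocs1: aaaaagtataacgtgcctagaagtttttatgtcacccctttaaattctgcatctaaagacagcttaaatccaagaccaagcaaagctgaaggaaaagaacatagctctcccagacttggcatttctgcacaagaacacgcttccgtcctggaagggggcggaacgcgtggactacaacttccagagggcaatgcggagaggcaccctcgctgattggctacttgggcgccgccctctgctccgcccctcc
Srf: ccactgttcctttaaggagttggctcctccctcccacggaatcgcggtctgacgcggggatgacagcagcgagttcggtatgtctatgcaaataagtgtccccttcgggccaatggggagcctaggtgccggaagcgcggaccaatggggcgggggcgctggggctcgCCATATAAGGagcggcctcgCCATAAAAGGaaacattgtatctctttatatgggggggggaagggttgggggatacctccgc
Srf held 2 CArG boxes, which begin 82 and 62 bases before its start, and Mocs1 held 0. Of the 7 genes 6 had an entry in the table of upstream sequences, all but Xdh, and 0 of these 6 held a CArG box within 250 bases. The box occurred in 1.47% of all 32851 upstream windows of this length. The motif CCGGAAGT, a core sequence bound by ETS-domain partners of SRF such as ELK1 and searched on both strands, was in 0 of the 6 windows and in 2.88% of all windows. These matches describe letters in a window, and no binding was measured here.

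Values below are quantile normalized log2(intensity + 16), with mean ± SD over the arrays of a group (n = 3). Each difference is the SRF-null mean less the control mean. The offset of 16 sets the bottom of the scale at 4.0, and 26.0% to 26.9% of probe sets had an intensity under 16 on each array. A probe set's signal depends on its probes, so signals of different genes were not compared as amounts of transcript. The arrays came from bulk RNA, in which fewer cells of a type and less RNA per cell cannot be told apart. The targeted gene, Srf, read 13.04, 13.00 and 13.04 on control arrays and 12.58, 12.43 and 12.80 on SRF-null arrays with its brighter probe set (difference −0.42, SE 0.14). Its dimmer probe set differed by 0.10 (SE 0.35), and the sources used here do not place either relative to the deleted part. Of 9 LSK markers 8 were measured, with 3 differences above and 5 below 0. Kit (14.81 to 15.44) and Cd34 (16.72 to 16.93) were bright on all 6 arrays. Slamf1 read 11.6, 12.33 and 11.8 on control arrays and 11.61, 10.73 and 9.18 on SRF-null arrays. Its difference was −1.40 (SE 0.62) with overlap of the groups, and its other probe sets differed by −1.53 and −0.75. The erythroid markers Hba-a1 and Alas2 and the B cell marker Pax5 had an intensity under 16 on every array, whereas other markers of these lineages did not, with Klf1 at 9.80 to 12.75, Epor at 7.65 to 10.11 and Cd79b at 14.14 to 14.51. Control replicate 2 stood apart in having the Y-linked transcripts Kdm5d and Eif2s3y at 4.0 and 4.37, and SRF-null replicate 1 in having Xist at 5.03, whereas the other arrays carried transcripts of both sexes. RNA quality was read from the 3′ to 5′ difference of the Actb controls, which was 1.18 to 1.45 log2 units on control and 0.93 to 1.51 on SRF-null arrays. That of the Gapdh controls was 0.97 to 1.2 on control and 0.67 to 1.16 on SRF-null arrays, and SRF-null replicate 3 was the lowest array in both.

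By limma, 0 of the 12 probe sets had a Benjamini-Hochberg adjusted p under 0.05 over all probe sets, where 0 of 45037 (0%) did. At an unadjusted p under 0.05 the count was 1 of 12, beside 4.39% of all probe sets (1975). With the replicate number as a block, these counts were 1 of 12 and 3189. The groups did not overlap for 1 of the 12 probe sets, beside 9.24% of all. After centring the arrays on their medians instead of quantile normalization, 1 of 12 had an adjusted p under 0.05, beside 0.00222% of all. That probe set was the brighter one of Mocs1 in each case, the one whose difference chose the set. Of the 12 differences 8 were above and 4 below 0, and 6 were smaller than their own standard error. Their median was 0.05, against 0.00 over all probe sets, and the median size regardless of sign was 0.17, against 0.15. The plot of signals by array shows each of these values.

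**Figure D1:**
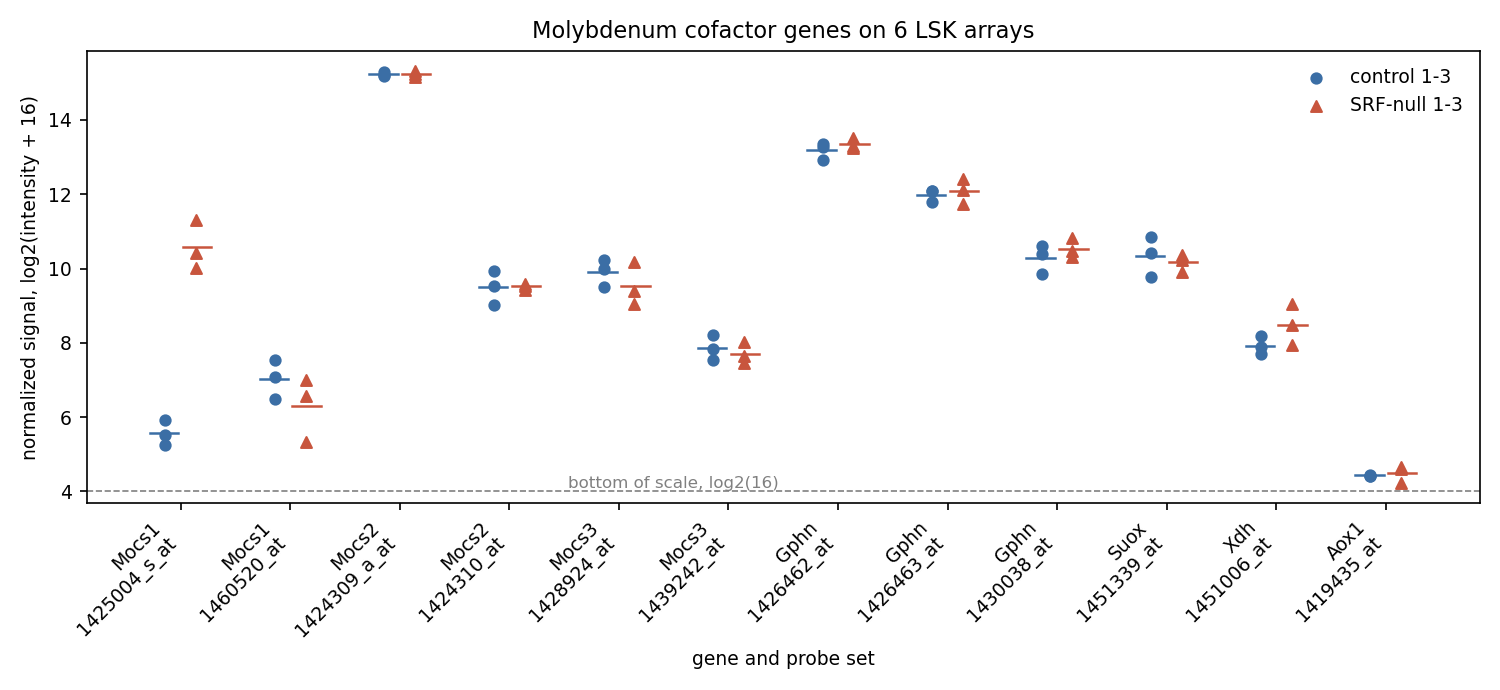
Normalized signal, log2(intensity + 16), of the 12 probe sets of the 7 genes on 3 control arrays (circles) and 3 SRF-null arrays (triangles), with short lines at the group means and a dashed line at the bottom of the scale, 4.0. The brighter Mocs1 probe set sits between 5.26 and 5.93 in control and between 10.02 and 11.30 in SRF-null cells, and in the other 11 probe sets the groups overlap.

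Mocs1, whose product carries out the first step of the pathway, was dim in control LSK cells and well above the bottom of the scale in SRF-null cells, as measured by probe set 1425004_s_at, the brighter of its pair. This probe set read 5.26, 5.51 and 5.93 on the control arrays and 10.43, 11.30 and 10.02 on the SRF-null arrays. All 3 SRF-null arrays lay above all 3 control arrays, with no value between 5.93 and 10.02. The means were 5.57 ± 0.34 and 10.58 ± 0.65, a difference of 5.02 (SE 0.36) or 32.4-fold on the log2(intensity + 16) scale, the largest in size of all 45037 probe sets. In the deposited intensities it read 23.9, 27.7 and 40.7 on control arrays and 1466, 2443 and 957 on SRF-null arrays. Because the control intensities were near the offset, the fold depended on it, with 47.6-fold at an offset of 1 and 16.6-fold at an offset of 64. On control arrays the signal exceeded that of 29.8% to 36.5% of all probe sets, and on SRF-null arrays that of 61.3% to 68.5%. Between arrays of equal replicate number the difference was 5.17, 5.79 and 4.09. When the arrays with transcripts of 1 sex were left out (control replicate 2, SRF-null replicate 1), the difference was 5.06.

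The other Mocs1 probe set, 1460520_at, did not show this difference. It read 6.48, 7.07 and 7.54 on control arrays and 6.58, 7.01 and 5.32 on SRF-null arrays, so that the groups overlapped and SRF-null replicate 3 was the lowest array. The difference was −0.72 (SE 0.50). It was −0.23 without SRF-null replicate 3 and −1.08 without SRF-null replicate 2. The brighter probe set minus this one gave −1.22, −1.56 and −1.61 log2 units on the control arrays and 3.85, 4.28 and 4.70 on the SRF-null arrays. The mean of this gap was −1.46 on control and 4.28 on SRF-null arrays. On control arrays 1460520_at was the brighter of the pair (7.03 ± 0.53, against 5.57), so the name of brighter probe set rests on the SRF-null arrays. In Affymetrix names the ending _s_at marks probes that can match more than a single transcript, and the sources used here do not say which Mocs1 transcripts or other sequences each probe set detects.

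**Figure D2:**
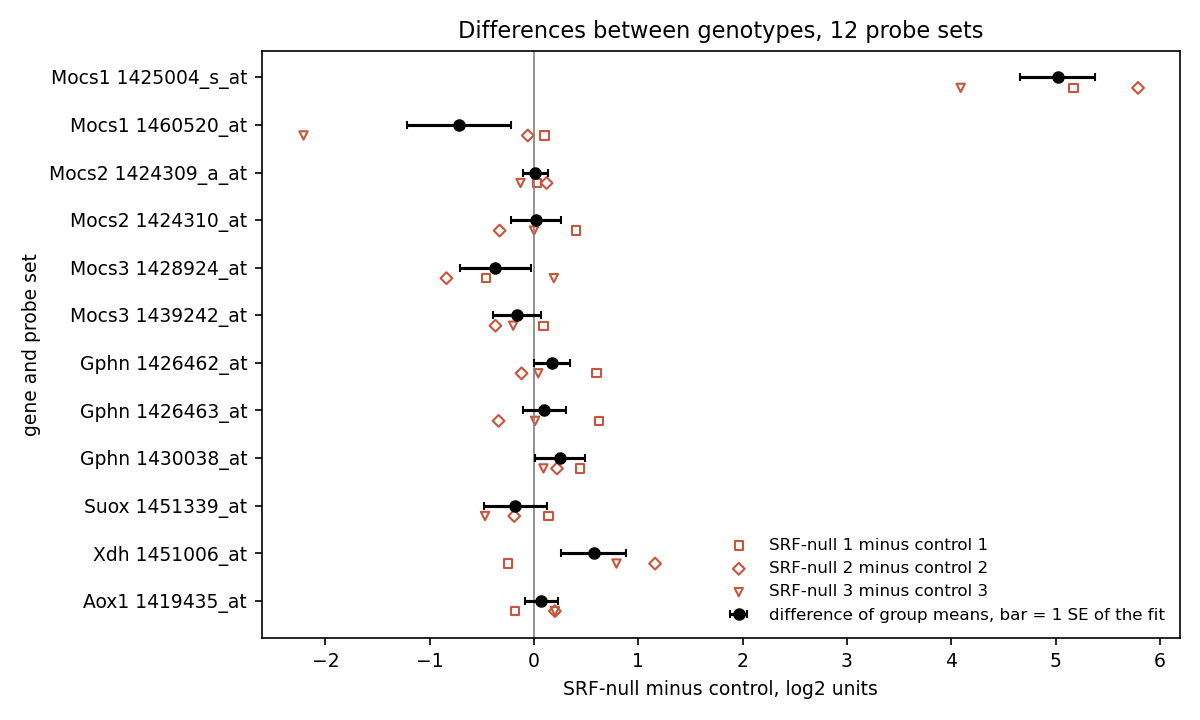
Difference SRF-null minus control in log2 units for the 12 probe sets, with black points for the difference of group means, bars of 1 standard error and open symbols for each pair of arrays with the same replicate number. Mocs1 1425004_s_at lies at 5.02 with pairs from 4.09 to 5.79, and the other 11 means lie between −0.72 and 0.57.

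The remaining synthesis genes had small differences. Mocs2 encodes both subunits of molybdopterin synthase. Its probe set 1424309_a_at read 15.21, 15.19 and 15.28 on control arrays and 15.24, 15.31 and 15.15 on SRF-null arrays, a difference of 0.01 (SE 0.12). Its SD within genotypes, 0.06, was among the smallest on the array, as only 2.96% of all probe sets, and 8.34% of the 2230 probe sets within 0.5 log2 units of its level, had a smaller one. The second Mocs2 probe set, 1424310_at, read 9.02, 9.92 and 9.54 on control and 9.42, 9.59 and 9.54 on SRF-null arrays, a difference of 0.02 (SE 0.24). Here the SRF-null arrays all lay inside the range of the control arrays.

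Mocs3 encodes the sulfur carrier activating enzyme that also serves tRNA thiolation through URM1. Its brighter probe set, 1428924_at, read 9.50, 10.24 and 9.98 on control arrays and 9.04, 9.40 and 10.17 on SRF-null arrays, a difference of −0.37 (SE 0.34). SRF-null replicates 1 and 2 lay below every control array, while SRF-null replicate 3 lay among them. Without SRF-null replicate 3 the difference was −0.68, and without both control replicate 2 and SRF-null replicate 1 it was 0.05. Its dimmer probe set, 1439242_at, differed by −0.16 (SE 0.23) with overlapping groups.

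Gphn encodes gephyrin, which besides metal insertion anchors glycine and GABA-A receptors at inhibitory synapses. All 3 of its probe sets were above the bottom of the scale on every array, and their differences were 0.17 (SE 0.17), 0.10 (SE 0.21) and 0.25 (SE 0.24). The brightest, 1426462_at, read 12.91, 13.36 and 13.27 on control arrays and 13.51, 13.25 and 13.30 on SRF-null arrays. Control replicate 1 was the lowest array in this probe set and in 1430038_at (9.86, against 10.30 to 10.81 elsewhere), and without that array the differences of these probe sets were 0.04 and 0.04. The gephyrin transcript was thus measured in LSK cells of both genotypes at levels that overlapped.

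Among the enzymes that use the cofactor, Suox and Xdh were measured above the bottom of the scale and Aox1 was not. Suox, the mitochondrial enzyme that oxidises sulfite to sulfate, read 9.77, 10.41 and 10.85 on control arrays and 9.91, 10.22 and 10.37 on SRF-null arrays. The SRF-null arrays lay within the control range, and the difference was −0.18 (SE 0.30).

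Xdh had the second largest difference above 0 in the set. It read 8.18, 7.89 and 7.70 on control arrays and 7.93, 9.05 and 8.49 on SRF-null arrays, a difference of 0.57 (SE 0.31) or 1.48-fold. SRF-null replicates 2 and 3 lay above every control array, while SRF-null replicate 1, an array with transcripts of 1 sex, lay among the controls. Without it the difference was 0.85. The pair differences were −0.25, 1.16 and 0.79. The summed signal of all 9 of 9 monocyte and macrophage markers was 11900 to 33600 on control and 30000 to 41400 on SRF-null arrays. All 9 differences were above 0, none of the 9 was under an intensity of 16 on every array, and their part in the Xdh value was not tested.

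Aox1 had an intensity under 16 on all 6 arrays (2.62 to 9.32), and its normalized values of 4.23 to 4.65 lie at the bottom of the scale, where they have no order. Its relatives in the aldehyde oxidase family were also dim. Aox3 read 4.03 to 4.45. Aox4 read 5.05, 5.09 and 5.24 on control arrays and 5.59, 6.74 and 5.92 on SRF-null arrays, a difference of 0.96 (SE 0.30) without overlap of the groups. It did not pass adjustment over all probe sets. Aox2 was not analysed here.

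Markers of LSK and other cell types were read beside Mocs1. In 2 of 9 lists the summed signal was higher on every SRF-null array than on any control array, and in the others the sums overlapped. All 9 monocyte and macrophage differences were above 0, and C1qa (1.70, SE 0.56) and Mrc1 (2.08, SE 0.55) alone were without overlap. Differences above 0 numbered 3 of 8 for LSK, 4 of 4 for B cells and 4 of 6 for granulocytes. They numbered 3 of 5 for erythroid cells, 4 of 5 for megakaryocytes and 4 of 4 for liver. Among those above 0 were Pax5, Alas2, Alb and Cyp2e1, with an intensity under 16 on every array, where values have no order. For T and NK cells (6 of 7 markers measured) the sum was 56200 to 66300 on control and 76600 to 84300 on SRF-null arrays, carried mostly by Nkg7 (15.77 to 16.01 and 16.21 to 16.36). The T cell receptor chain gene Cd3g had an intensity under 16 on every array. Cd3e read 5.47, 4.1 and 5.58 on control arrays and 4.38, 7.54 and 7.51 on SRF-null arrays. Cd4 read 7.17, 8.22 and 8.25 and then 8.72, 9.23 and 9.02, a difference of 1.11 (SE 0.34) without overlap. The other Cd4 probe set differed by −0.07. In this list 5 of the 6 differences were above 0. For stromal and endothelial cells (8 of 8 markers measured) the sum was 16400 to 19600 on control and 22200 to 31900 on SRF-null arrays, carried mostly by Pdgfrb (13.64 to 13.95 and 14.21 to 14.77), and 0 of the 8 were under 16 on every array. Of the 8 differences 5 were above and 3 below 0, those of Kdr (−0.40), Col1a1 (−0.14, SE 0.84) and Col1a2. The other Col1a1 probe set differed by 0.50. Lepr was counted above 0 at 0.29 (SE 0.46), while its other probe sets differed by −0.0, −0.2 and −0.04. Col1a2, a collagen gene of fibroblasts, read 9.35, 11.16 and 8.96 on control arrays and 7.09, 8.44 and 8.61 on SRF-null arrays, a difference of −1.78 (SE 0.69) without overlap. The part of these signals in the Mocs1 value was not tested. Of 4 liver markers, where the cofactor enzymes are known to be abundant, Alb and Cyp2e1 had an intensity under 16 on every array, and the sums overlapped (48.9 to 112 and 85.3 to 157).

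Mocs1 and Xdh lie on the same chromosome as Srf, and the 3 measured genes on each side of them had differences of 0.68 or less in size. The 3 measured genes before Mocs1 in gene order were 1700008K24Rik (0.13, SE 0.27), Lrfn2 (0.05, SE 0.31) and Unc5cl (0.68, SE 0.42), and the 3 after it were Daam2 (0.11, SE 0.23), Kif6 (−0.28, SE 0.19) and Rftn1 (0.09, SE 0.20). The groups overlapped in all 6, and Daam2, a formin that builds actin filaments and the next annotated protein-coding gene after Mocs1, read 5.29, 5.34 and 4.74 on control and 5.13, 5.54 and 5.04 on SRF-null arrays. The 6 measured neighbours of Xdh, Ehd3, Galnt14, Capn13, Memo1, Dpy30 and Spast, differed by −0.05 to 0.37, all with overlap. Between Srf and Mocs1 50 genes were measured, of which 7 (14.0%) had groups without overlap, beside 10.6% of all genes, with a median difference of 0.06 and a range of −0.93 to 2.81. The highest was Trem3, a receptor gene of the TREM family, which read 5.23, 5.68 and 7.46 on control arrays and 9.45, 7.28 and 10.05 on SRF-null arrays, so that the groups overlapped (SE 0.90). It is named after its values were seen.

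**Figure D3:**
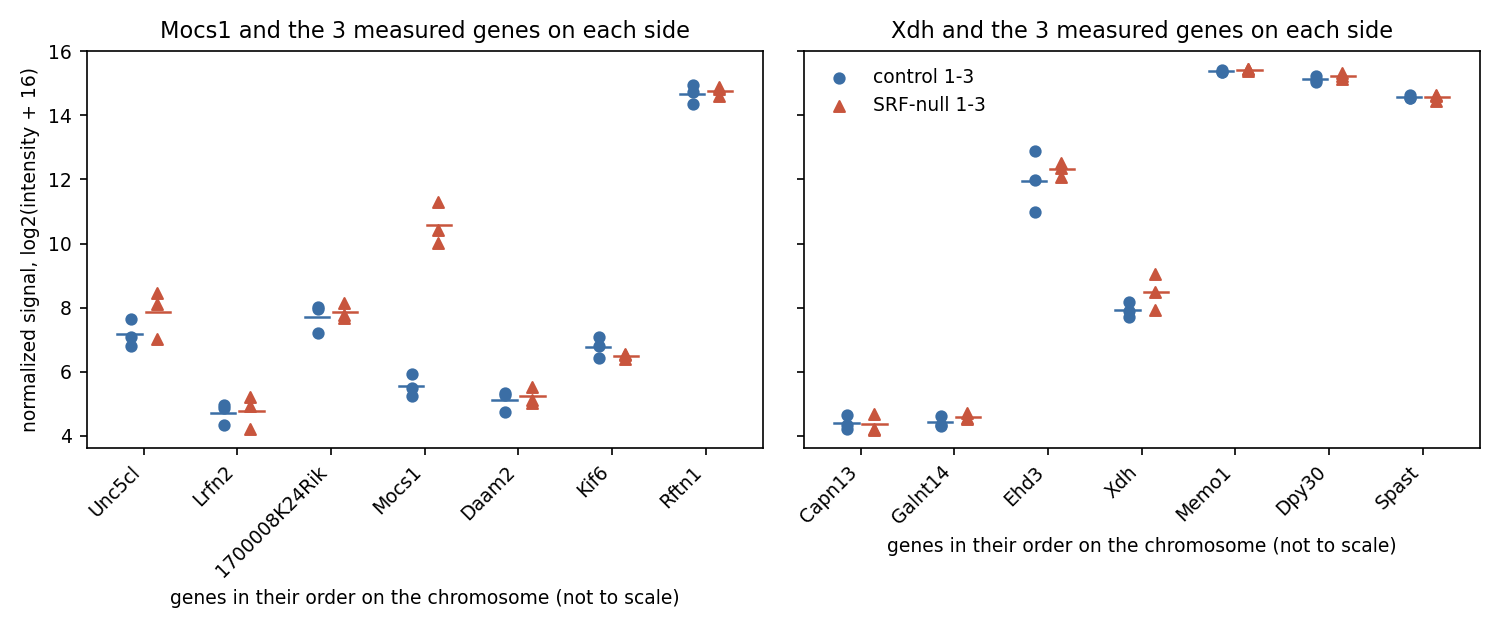
Normalized signal, log2(intensity + 16), of Mocs1 (left) and Xdh (right) between the 3 measured genes on each side in gene order, with circles for 3 control arrays, triangles for 3 SRF-null arrays and lines at the means. The brighter Mocs1 probe set has means of 5.57 and 10.58 in control and SRF-null cells. The other Mocs1 probe set, not drawn, has means of 7.03 and 6.31. The 6 neighbours of Mocs1 differ by −0.28 to 0.68 and overlap.

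The 5 genes whose profile lay nearest to the brighter Mocs1 probe set were found by root mean square distance over the 6 arrays, after centring each gene on its own mean, among 18192 genes. They were Rhoj, a Cdc42-related GTPase (distance 1.13 log2 units), Mrvi1, a substrate of cGMP kinase that binds the IP3 receptor (1.32), the calponin gene Cnn2 (1.33), Trbv1, a T cell receptor beta variable segment (1.38), and the tropomyosin gene Tpm2 (1.46). For scale, a flat profile lay 2.54 from Mocs1. Rhoj read 4.83, 5.82 and 4.98 on control arrays and 8.91, 8.72 and 7.12 on SRF-null arrays, a difference of 3.04 (SE 0.54). By their brightest probe sets all 5 were higher on every SRF-null array than on any control array, by 2.20 to 3.04. The measure favours this because Mocs1 separates the genotypes. The other Trbv1 probe set differed by 0.02, that of Mrvi1 by 2.55 and those of Tpm2 by 1.03 to 2.31.

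**Figure D4:**
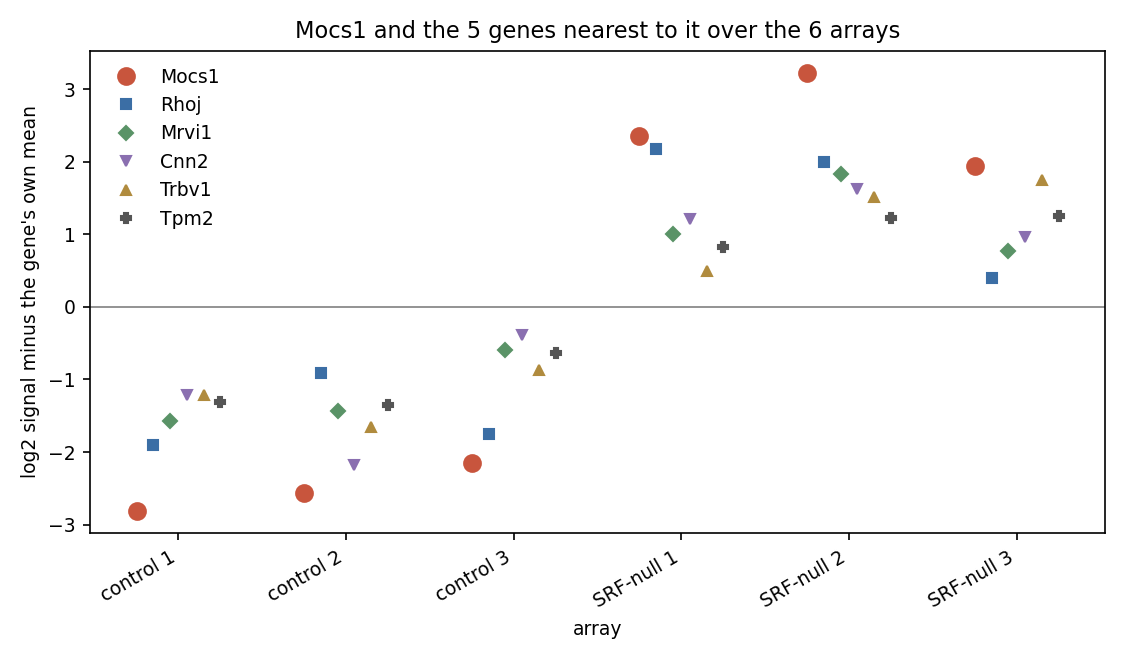
Signal of the brighter Mocs1 probe set and of the 5 genes nearest to it, each as log2 units above or below its own mean over the 6 arrays. Each gene has a symbol, and the other Mocs1 probe set is not drawn. All 6 genes lie below their mean on the control arrays and above it on the SRF-null arrays, and Mocs1 is the farthest from its mean on each of the 6 arrays.

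Genes with functions next to the pathway were read from 6 lists of 92 genes, of which 79 were measured by 162 probe sets. By limma, 0 of the 162 passed an adjusted p of 0.05 and 8 (4.94%) had an unadjusted p under 0.05, close to the 4.39% of all probe sets. The groups did not overlap in 15 (9.26%), against 9.24% of all. The median difference over the 162 was −0.04, with 62 above and 100 below 0.

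In the list of other molybdenum enzymes and cofactor handling (6 of 7 genes measured, 7 probe sets, 3 above and 4 below 0, median −0.15), Mocos, the sulfurase that activates the cofactor of XDH and aldehyde oxidases, read 8.57, 9.97 and 9.67 on control arrays and 7.84, 9.13 and 8.17 on SRF-null arrays. Its difference was −1.03 (SE 0.48), and the groups overlapped through control replicate 1 and SRF-null replicate 2. The mitochondrial amidoxime reducing enzyme gene Mtarc2 read 15.18 to 15.64 on control and 14.95 to 15.39 on SRF-null arrays (−0.15, SE 0.20). Its paralog Mtarc1 lay at the bottom of the scale, at 4.0 to 4.78, where values have no order. The Mtarc1 groups did not overlap there (−0.41, SE 0.18), while the other Mtarc1 probe set differed by 0.08 with overlap. Aox4 was the 1 probe set of this list (14.3%) with an unadjusted p under 0.05 by limma, beside 4.39% of all probe sets. The molybdate transporter gene Mfsd5 differed by −0.20 (SE 0.23).

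Sulfur transfer partners of MOCS3 (9 of 10 genes, 16 probe sets, 8 above and 8 below 0) had a median of −0.01, with the cysteine desulfurase gene Nfs1 at −0.16 (SE 0.15, other probe sets 0.27 and −0.18), the tRNA thiolation gene Ctu2 at −0.34 (SE 0.19) and Tstd3 at 0.67 (SE 0.47). Iron-sulfur cluster assembly genes (18 of 23, 35 probe sets, 15 above and 20 below 0) had a median of −0.03, with Bola3 at 0.33 (SE 0.20, other probe sets −0.26 and −0.39), Isca1 at −0.22 (SE 0.14) and Nubp1 at 0.32 (SE 0.24). Genes of sulfur amino acid breakdown and sulfate use (14 of 14, 30 probe sets, 12 above and 18 below 0) had a median of −0.02. In that list Sqor, the mitochondrial sulfide oxidising enzyme, read 13.73, 13.94 and 13.78 on control arrays and 13.55, 13.68 and 13.48 on SRF-null arrays, a difference of −0.25 (SE 0.13) without overlap, while its second probe set differed by 0.23. Cbs and Csad differed by −0.35 (SE 0.27) and −0.31 (SE 0.24). Probe sets with an unadjusted p under 0.05 numbered 0 in each of these 3 lists.

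Purine salvage and breakdown genes feed or follow XDH. Of 32 probe sets for 16 of 17 genes 8 were above and 24 below 0, with a median of −0.06. The groups did not overlap in 7 (21.9%), all lower, beside 9.24% of all probe sets. By limma 6 (18.8%) had an unadjusted p under 0.05, beside 4.39% of all, and 0 an adjusted p under 0.05. Of these 6 probe sets 3 were of Gda, guanine deaminase, which makes xanthine, a substrate of XDH. The brightest Gda probe set read 11.74, 12.83 and 12.43 on control arrays and 11.46, 10.32 and 11.35 on SRF-null arrays, a difference of −1.29 (SE 0.41), and the other Gda probe sets differed by −1.46 and −1.57. The remaining probe sets of the 6 were of Ampd2 (−0.52), Nt5c2 (−0.47) and Nt5e (−0.78), and the brightest probe sets of these genes overlapped between genotypes. Ampd1 (−0.21, SE 0.13), among the 7 without overlap, was at the bottom of the scale, and Ampd3 differed by 0.29 (SE 0.18). Uric acid oxidase, Uox, read 4.6 to 4.79 on all arrays.

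Gephyrin partners (16 of 21 genes, 42 probe sets, 16 above and 26 below 0) had a median of −0.06. By limma 1 probe set (2.38%), of Enah, had an unadjusted p under 0.05, beside 4.39% of all. The kinesin gene Kif5a differed by 0.72 (SE 0.31) on its brightest probe set and by 0.06 and 0.10 on the others. The GABA-A receptor subunit genes Gabra3 (0.41, SE 0.22) and Gabrb2 (0.42, SE 0.30) were dim, at 4.21 to 5.54 over all arrays, and their other probe sets differed by 0.04 and by −0.16 to 0.06. Enah, which encodes an actin regulator and is named here after its values were seen, differed by −1.07 (SE 0.80) on its brightest probe set, with control replicate 2 at 11.23 and the other arrays at 8.0 to 9.14. The Enah probe set just counted differed by −0.95.

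**Figure D5:**
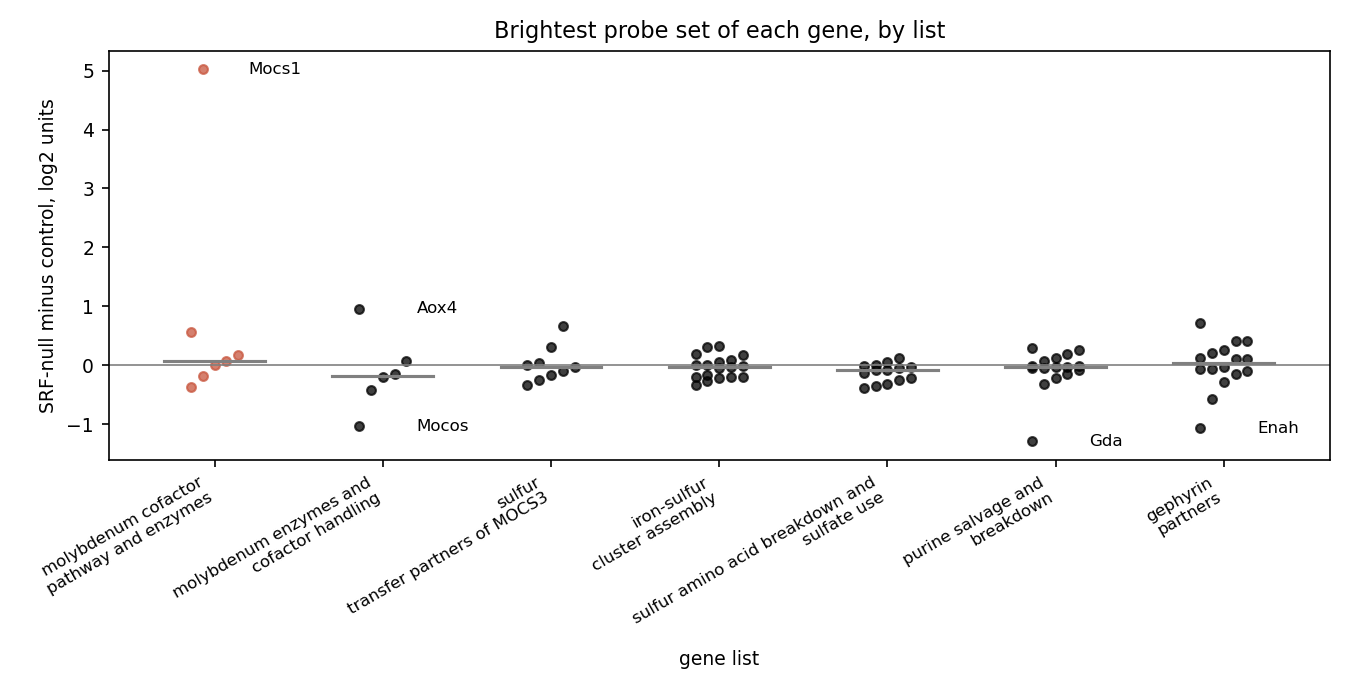
Difference SRF-null minus control in log2 units for the brightest probe set of each gene, with a point per gene, the 7 pathway genes in red at the left, 6 lists of related genes in black and grey lines at the list medians. Mocs1 lies at 5.02, and the farthest of the other labelled genes are Aox4 at 0.96 and Gda at −1.29.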

How the data were processed

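Gene expression in sorted LSK cells was measured on 6 single-colour Affymetrix arrays, 3 per genotype, from 30 ng of total RNA that was amplified with a NuGEN system and biotinylated, per the labels' protocols. The authors deposited an intensity on a linear scale for each probe set, a unit read from the values. The sources used here do not name their summary algorithm, background correction or scaling. After 64 control probe sets were left out, 45037 remained, of which 34945 named 1 gene, 932 several and 9160 none in the annotation. All 12 probe sets of the 7 genes were found in the RefSeq gene table by gene ID under the same symbol.

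Intensities were converted to log2(intensity + 16) and quantile normalized, and genotypes were compared in R 4.3.3 by limma's lmFit and eBayes (version 3.58.1, both sides, genotype as the sole term), adjusting by Benjamini-Hochberg over all 45037 probe sets with a threshold of 0.05. Dim probe sets were kept. Precision is limited by the number of arrays. The fit was tested on simulated independent normal log2 values with known shifts, which did not cover the offset, the normalization or shared replicate deviations. Figures were drawn with matplotlib 3.10.9.

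The genes, lists, rule for named genes and alternatives were chosen with earlier results of these data known. The rule named every member, up to 3 genes of each list with the smallest p by their brightest probe set, 3 measured neighbours on each side of Mocs1 and Xdh, and 5 genes nearest to Mocs1. Arrays share the replicate numbers 1 to 3. Over all probe sets, deviations from group means correlated by 0.473, 0.210 and 0.427 between equal numbers and by −0.424 to 0.014 between unequal numbers. The main fit and the printed standard errors did not use the replicate numbers as pairs. An alternative fit took them as a block, and it is given where it moves a count. Alternatives covered the offset, the normalization, the variance model, dim probe sets, 1 value a gene, the replicate block and leaving out arrays.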

Additional observations from a re-analysis of the deposited data

How the results depend on the processing

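The difference of the brighter Mocs1 probe set, the value that chose the genes, ranged from 2.15 to 5.57 over 16 alternatives. Where 1 probe set a gene was taken, or dim probe sets were left out, it was kept for its SRF-null signal, as its control mean was 5.57 against 7.03 for the other. It was 5.57 with an offset of 1, 4.05 with an offset of 64 and 2.15 as the mean of both Mocs1 probe sets, and 4.66 to 5.30 when each array was left out in turn. The count of probe sets past an adjusted p of 0.05, 0 in the report, was 1 after median centring (Mocs1) and 0 to 1 when each array was left out, with 1 call, for Ccnb1ip1, without control replicate 2. Among the 7 genes it was 1 after median centring and 0 in the other alternatives, and among related genes 0 throughout. With the replicate block no adjusted call was gained, and the count at an unadjusted p under 0.05 was 3189 against 1975. Groups did not overlap for 4163 probe sets, for 2224 after median centring, and, with fewer probe sets or genes tested, for 2271 of 22519 at or above the median level, 1929 of 18193 with the brightest probe set of each gene and 1788 of 18193 with the mean of a gene's probe sets. With fewer arrays this count and that of the members, 1 of 12 in the report, grow by construction. Without both control replicate 2 and SRF-null replicate 1 the counts were 12273 of 45037 probe sets and 5 of the 12 member probe sets. With each array left out they were 7170 to 11233 of 45037 and 1 to 4 of the 12. Nothing is read from these member counts. The sign of the difference changed in at least 1 alternative for both Mocs2 and both Mocs3 probe sets, for Suox and for Gphn 1426463_at, each within the spread between arrays. For Xdh the range was 0.29 (without SRF-null replicate 2) to 0.85 (without SRF-null replicate 1). Aox1 lay at the bottom of the scale, so no difference could be measured for it.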
